A study of Rattus norvegicus with 8 samples.

Results

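The genes described here encode the parts of the lysosome in rat liver: the proton pump that acidifies it, the cathepsins that digest protein inside it, and proteins of its membrane and lumen. They were chosen by gene name, as every gene whose platform symbol belongs to the families Atp6v0, Atp6v1, Atp6ap, Cts followed by a letter, Lamp, Lamtor, Npc or Mcoln. The rule itself uses no measured difference, but it was set with earlier results of these data known. The rule found 51 genes, measured by 63 probe sets, among 14217 genes on the array, and where a gene had several, the brightest one on average across the 8 arrays stood for it. Livers of male Sprague-Dawley rats aged 7 weeks were compared, 4 from rats fed a diet from which ferric citrate had been removed and 4 from rats fed the same purified diet with its iron, each labelled a biological replicate and measured on 1 Affymetrix array. Per the labels, the iron-deficient diet went to 7 rats and the control diet to 6, daytime meals had been imposed beforehand, and the livers were removed on day 17 after 1.5 h of feeding. Blood hemoglobin of the iron-deficient group then stood at 42% of the control level. Which rats gave the 8 arrays is not stated. All 13 hepatocyte markers measured had means above the 25th percentile of the arrays, with albumin at 15.0 on the log2 scale in both groups.

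A lysosome keeps its lumen acid through the vacuolar ATPase, in which a V1 sector in the cytosol splits ATP and turns a V0 sector that carries protons across the membrane. The acid lumen lets cathepsins work. It also bears on iron, because transferrin gives up its iron in acid endosomes and ferritin is broken down in lysosomes. The Ragulator complex, encoded by the Lamtor genes, holds the growth kinase mTORC1 at the lysosomal surface, and the transcription factor TFEB, which mTORC1 restrains, switches on many lysosomal genes through E-box sites near their starts.

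None of the 51 genes passed the limma test at a Benjamini-Hochberg adjusted p under 0.05 over all probe sets, and the lowest adjusted p was 0.189, for Ctsh. Over all genes 6 passed, a share of 0.0422%, and over all probe sets 10 did, a share of 0.0322%. At an unadjusted limma p under 0.05, 7 of the 51 were lower in iron-deficient livers (Atp6v0a2, Atp6v0d1, Ctsf, Ctsh, Ctsz, Lamp1 and Lamtor2) and 2 were higher (Atp6ap1 and Atp6v1d). The share that was lower, 13.7%, stood beside 7.5% of all genes, and the share that was higher, 3.92%, beside 5.74%. Since none passed the adjusted test, "higher" and "lower" below describe the deposited values and are not calls. Without iron-deficient replicate 1 the count of lower genes was 3, where 7.15% of all genes were lower. It was 4 without iron-deficient replicate 4 (6.28% of all genes) and without control replicates 2 and 3 (5.92% and 5.49%). The count of higher genes was 1 without iron-deficient replicate 2, 3 or 4 (4.85%, 5.42% and 5.35% of all genes). It was also 1 without control replicate 1 or 2 (5.95% and 4.26%).

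The differences are small numbers because most deposited values hardly vary between arrays, so they are given here in millionths of a deposited log2 unit. Within-group SDs of the 51 genes ran from 0.479 to 529 millionths with a median of 7.45, against a median of 8.72 over all genes. The largest absolute difference among them was 394 millionths, for Ctsh. For scale, Tfrc, the transferrin receptor gene, differed by 0.0373 log2 units. Hamp, the hepcidin gene, differed by -8.16 log2 units (limma adjusted p = 0.0735), so not every deposited difference is small. How the deposited sizes relate to fold changes is not known, and they are not compared between probe sets, so each is set beside a standardised difference, in which the spread between livers of the same diet (the within-group SD) is the unit. On that measure the 51 genes had a median of -0.26, against -0.07 over all genes. Within 1 SD of no difference lay 34 of the 51 (66.7%), against 66.2% of all genes. Beyond 3 SD lay 3 of the 51 (5.88%), against 2.47% of all genes. The negative median of the 51 genes depended on the probe set rule and the scaling. It was 0.012 when each gene's probe sets were averaged (-0.036 over all genes). Under median centring of the arrays it was 0.17 (0.17 over all genes). In bulk liver, fewer cells of a type and less RNA per cell cannot be told apart.

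**Figure D1:**
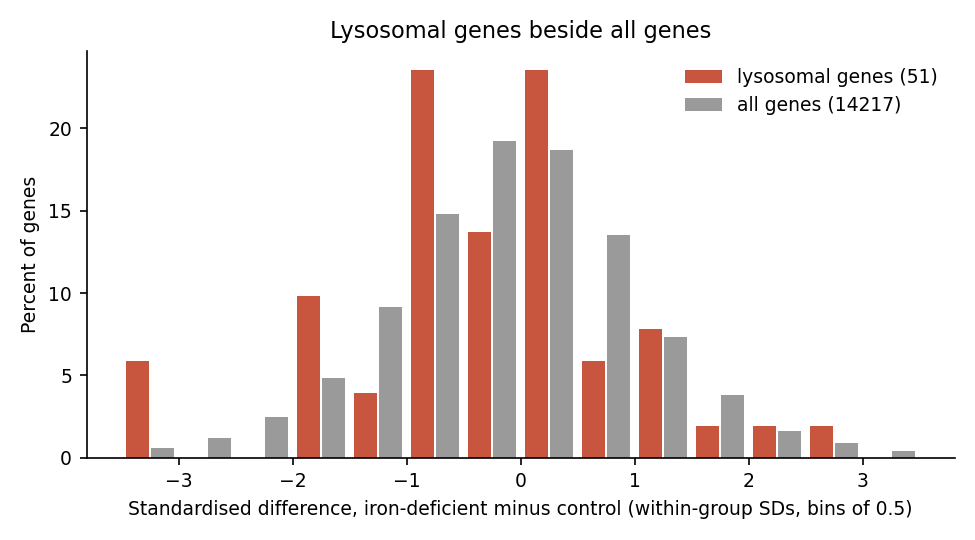
Bars give the percent of genes (vertical axis) in each bin of 0.5 within-group SDs of the standardised difference, iron-deficient minus control (horizontal axis), for the 51 lysosomal genes in red and all 14217 genes in grey, drawn from -3.5 to 3.5. Both centre near 0, with medians of -0.26 and -0.07, and the leftmost red bar holds Ctsh, Lamtor2 and Atp6v0a2.

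Of the 51 genes, 22 were higher and 29 lower in iron-deficient livers in the values as deposited, and these counts differed between scalings. There were 31 higher under quantile normalization, 16 when it left out Hamp, whose signal is the strongest on the control arrays, and 47 under median centring of the arrays. Median centring adds the same 50.6 millionths to every difference, so it turns each gene lower by less than that, and its counts show only how small those differences are. Below, counts under rescaling are given in that order of the 3 settings. Array by array, 14, 21, 25 and 25 of the 51 genes lay above their control mean in iron-deficient replicates 1 to 4, against 24, 24, 25 and 25 in control replicates 1 to 4. Iron-deficient replicate 1 thus held the lowest count of the 8 arrays and iron-deficient replicate 2 the next lowest. By the median offset from the control means, iron-deficient replicate 2 was lowest at -0.47 SDs and replicate 1 next at -0.40. The other arrays lay between -0.17 and -0.01.

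**Figure D2:**
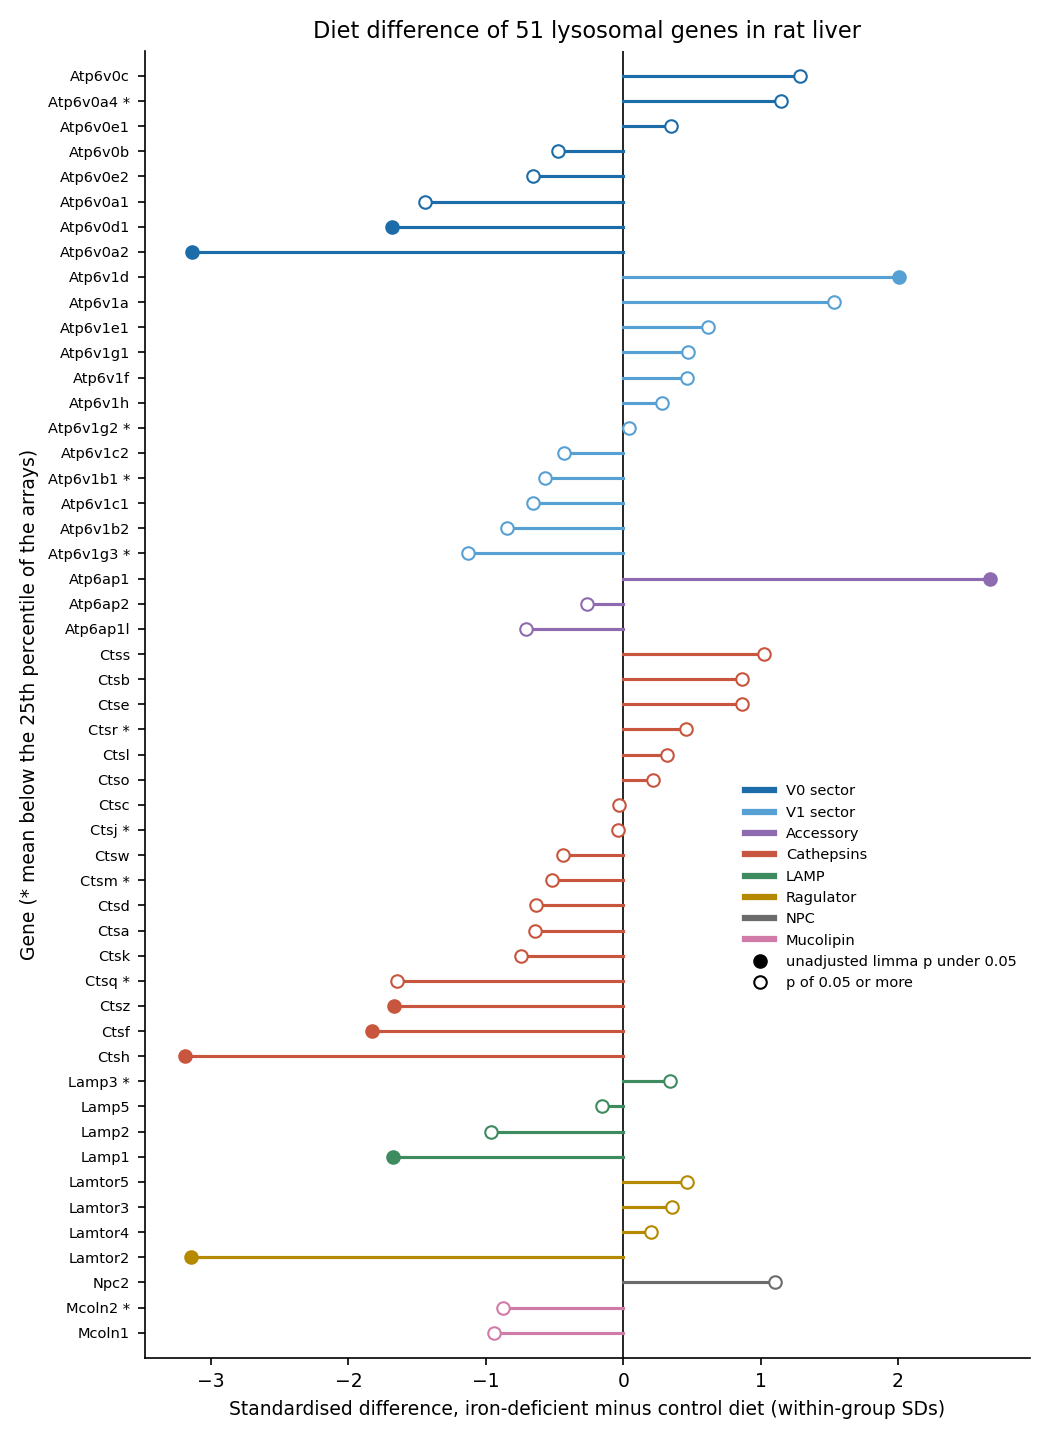
Each row is a gene and the horizontal axis is its standardised difference, iron-deficient minus control diet, in within-group SDs of the deposited values (n = 4 per group). Filled points had an unadjusted limma p under 0.05, and 7 of the 9 lie left of 0. Of these 7, Atp6v0d1, Ctsf, Ctsh, Lamp1 and Lamtor2 are higher under quantile normalization, and Atp6v0a2 and Ctsz only under median centring, which shifts all genes alike.

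The promoters bear on how these genes are controlled, and the E-box core CACGTG, a palindrome that reads the same on both strands, was looked for in the 250 bases before each RefSeq gene start on GRCr8. Promoters were in the table for 42 of the 51 genes, and 5 held the core, a share of 11.9%, against 8.22% of 11700 genes on the array and 5.59% of all promoter windows. The longer form TCACGTG, on either strand and always containing the core, was in 4 of the 42 (9.52%), against 4.72% of the array's genes and 2.79% of all windows. The stretches below run 5′ to 3′ on the gene's strand, from up to 30 bases before the first core to up to 30 after the last, and capitals mark each core. They are shown because the 5 genes that hold it were all lower in the deposited values, although all 5 were higher under quantile normalization.
Lamp1, chr16:83075066-83075276, minus strand: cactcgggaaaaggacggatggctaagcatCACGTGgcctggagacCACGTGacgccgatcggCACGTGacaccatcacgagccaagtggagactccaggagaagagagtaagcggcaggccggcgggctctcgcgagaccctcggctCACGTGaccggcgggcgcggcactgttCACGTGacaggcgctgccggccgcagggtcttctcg
Ctsd, chr1:206968822-206969008, minus strand: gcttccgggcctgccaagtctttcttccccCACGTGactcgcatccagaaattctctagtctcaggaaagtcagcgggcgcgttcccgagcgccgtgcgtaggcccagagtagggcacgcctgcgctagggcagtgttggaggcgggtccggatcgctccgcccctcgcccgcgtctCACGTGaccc
Atp6v0d1, chr19:50357265-50357330, minus strand: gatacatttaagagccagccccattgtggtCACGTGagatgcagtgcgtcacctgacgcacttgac
Ctsf, chr1:211581990-211582055, plus strand: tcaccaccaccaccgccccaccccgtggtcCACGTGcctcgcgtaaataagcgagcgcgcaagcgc
Mcoln1, chr12:6358206-6358257, plus strand: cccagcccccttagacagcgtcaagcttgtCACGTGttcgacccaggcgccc

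Lamp1 held 5 cores, Ctsd 2 and each of the other genes 1, and the core of Ctsf alone lacked the longer form. The median standardised difference of these 5 genes was -1.68, against 0.04 for the 37 searched genes without the core, of which 18 were lower. These are deposited values: of the 5 genes, 5 were higher under quantile normalization, 1 when it left out Hamp (2 were at 0) and 4 under median centring. An unadjusted limma p under 0.05 on the lower side was found in 3 of the 5, against 4 of the 37. The motif was chosen with earlier results of these data known, so this split describes the genes and is no test. Over the 11700 searched genes of the array, the 962 with the core had a median of -0.11 and those without it -0.09. Of the 962, 55.2% were lower in the deposited values, where 7533 of all 14217 genes were lower. At an unadjusted limma p under 0.05, 8.52% of the 962 were lower, beside 7.5% of all 14217 genes. The 14217 include the 962 and genes not searched. A match describes letters in a window, not a site in use.

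**Figure D3:**
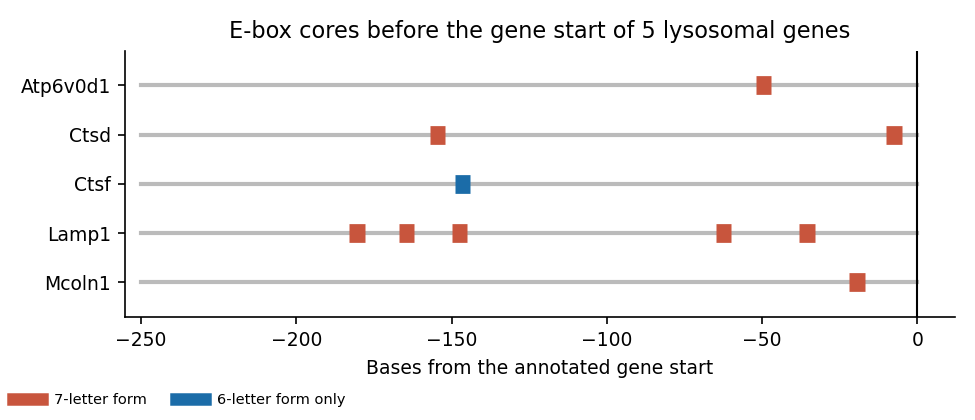
Grey lines are the 250 bases before the annotated start of 5 genes, with distance from the start in bases on the horizontal axis, and blocks mark the E-box cores, red where the 7-letter form is present and blue where only the 6-letter core is. Lamp1 holds 5 cores, between 183 and 33 bases before its start.

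The membrane sector of the pump had 8 genes, 3 higher (6, 3 and 8 under rescaling) and 5 lower, with a median standardised difference of -0.56. Atp6v0a2 encodes a form of the large a subunit that sorts the pump to its membrane. Relative to the control mean, its values were -26.5, -40.7, -25.9 and -18.3 millionths in iron-deficient livers, against -10.1, 7.52, 6.31 and -3.75 in control livers. The groups did not overlap, and every iron-deficient liver was lower. The difference was -27.8 ± 6.04 millionths (SE, n = 4 per group), or -3.14 within-group SDs, with a limma adjusted p of 0.199. It became 0 under quantile normalization and turned higher under median centring. A second probe set of Atp6v0a2 differed by -2.06 ± 4.90 millionths, with overlapping groups.

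Atp6v0d1 encodes the d subunit that joins the rotor to the V1 sector, and carries 1 of the E-box cores printed above. Its values were -31.0, -18.2, -16.0 and -8.24 millionths in iron-deficient livers, against 6.81, -17.7, 2.05 and 8.90 in control livers. Control replicate 2 lay among the iron-deficient livers, so the groups overlapped. The difference of -18.3 ± 7.39 millionths (SE, n = 4 per group) reached a limma adjusted p of 0.424 and turned higher under quantile normalization and under median centring. Of the other V0 genes, Atp6v0a1, Atp6v0e2 and Atp6v0b lay between -1.44 and -0.47 on the standardised scale, and Atp6v0e1, Atp6v0a4 and Atp6v0c, the last encoding the proton-carrying ring, between 0.35 and 1.29.

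Genes of the V1 sector numbered 12, with 7 higher (8, 8 and 11 under rescaling) and 5 lower and a median standardised difference of 0.16. Atp6v1d encodes the central shaft. It measured 2.21, 3.85, 3.76 and 2.21 millionths from the control mean in iron-deficient livers, against -1.58, 0.0075, 2.68 and -1.10 in control livers. Control replicate 3 lay above 2 of the iron-deficient livers. The difference was 3.00 ± 1.23 millionths (SE, n = 4 per group), with a limma adjusted p of 0.429. It kept its sign under every alternative tried, although median centring cannot turn a higher gene. An unadjusted limma or permutation p under 0.05 was found in 4 of the 19 alternatives. Next by standardised difference, at 1.53, was Atp6v1a, the catalytic subunit, with a difference of 7.18 ± 3.24 millionths and a limma adjusted p of 0.471. The sign of Atp6v1a turned under quantile normalization with and without Hamp (-28.4 and -215 millionths), and its second probe set differed by 0.671 ± 1.92. Atp6v1b2, the B subunit form found in most tissues, had the largest deposited difference of the sector at -295 ± 235 millionths, a standardised difference of -0.85. Atp6v1b2 turned higher under quantile normalization with and without Hamp (214 and 19.4 millionths), and its second probe set differed by -20.6 ± 133. The remaining genes, Atp6v1b1, Atp6v1c1, Atp6v1c2, Atp6v1e1, Atp6v1f, Atp6v1g1, Atp6v1g2, Atp6v1g3 and Atp6v1h, lay between -1.13 and 0.62 on the standardised scale.

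Among the accessory subunits, Atp6ap1, which takes part in assembling and targeting the pump, was higher in every iron-deficient liver. Its values were 3.53, 8.32, 6.80 and 4.32 millionths in iron-deficient livers, against -3.02, 0.611, 1.81 and 0.595 in control livers. The groups did not overlap. The difference of 5.74 ± 1.61 millionths (SE, n = 4 per group), or 2.67 within-group SDs, reached a limma adjusted p of 0.284, and its sign turned when quantile normalization left out the Hamp probe set. Atp6ap2, also known as the prorenin receptor, and Atp6ap1l had standardised differences of -0.26 and -0.71. The 2 probe sets of Atp6ap2 differed in sign, and each difference was smaller than its SE.

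Across the pump as a whole, 23 genes were measured, 11 higher and 12 lower, and 2 of each had an unadjusted limma p under 0.05. That was 8.70% of the 23 in each direction, beside 5.74% of all genes higher and 7.5% lower. Genes of the pump and its assembly that fall outside the naming rule, such as Tcirg1, the a subunit form of osteoclasts, and Wdr7, numbered 11. Of these, 7 were higher (7, 4 and 11 under rescaling) and 4 lower, and none had such a p, the lowest being for Tm9sf4 at -39.5 ± 22.6 millionths (limma adjusted p = 0.576).

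**Figure D4:**
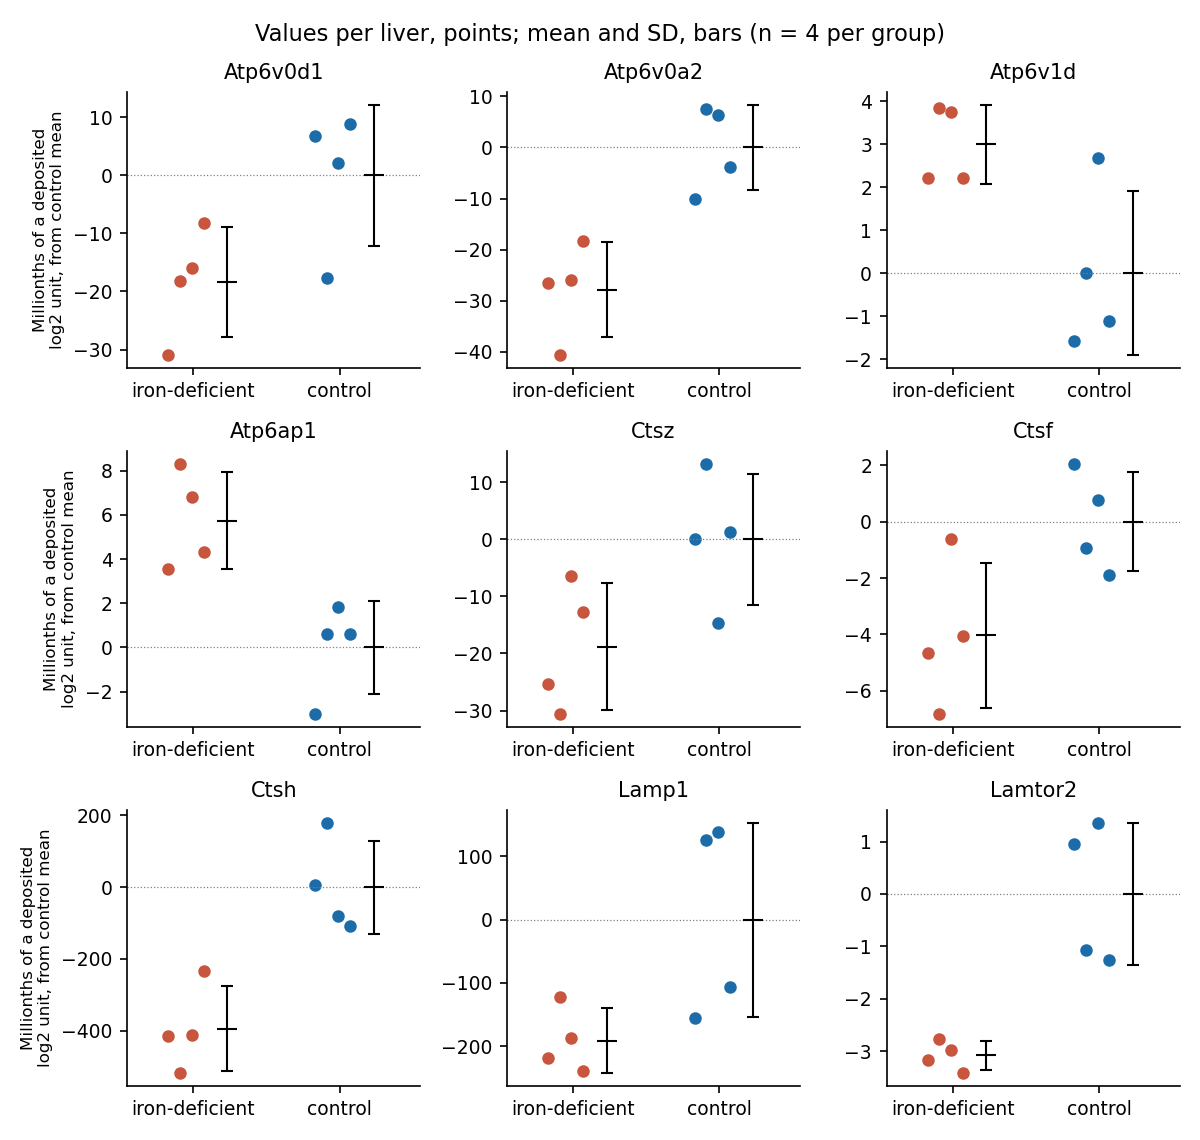
Panels show the 9 genes with an unadjusted limma p under 0.05, and each point is a liver, in millionths of a deposited log2 unit from the control mean (vertical axis), iron-deficient in red and control in blue, with the mean and SD beside them (n = 4 per group). In the deposited values the groups do not overlap for Atp6v0a2, Atp6ap1, Ctsh and Lamtor2, of which Atp6v0a2 and Lamtor2 turn higher under median centring, Ctsh and Lamtor2 higher under quantile normalization, and Atp6ap1 lower under quantile normalization without Hamp.

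The 17 cathepsin genes held 6 higher (11, 3 and 16 under rescaling) and 11 lower, with a median standardised difference of -0.44. Ctsh, the aminopeptidase cathepsin H, had the largest standardised difference of the 51 genes. Relative to the control mean it measured -413, -518, -410.2 and -234 millionths in iron-deficient livers, against 6.48, 179.6, -79.1 and -107 in control livers. All iron-deficient livers lay below all control livers. The difference was -394 ± 83.5 millionths (SE, n = 4 per group), or -3.19 within-group SDs, on a level of 12.06 in both groups, with a limma adjusted p of 0.189. It lay between -447 and -334 millionths whichever array was left out, but turned to 5831 under quantile normalization, where the gene has no spread within groups.

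Ctsf and Ctsz, a cysteine endopeptidase and a carboxypeptidase, were lower with overlapping groups. Ctsf measured -4.65, -6.83, -0.602 and -4.06 millionths in iron-deficient livers, against 2.06, -0.937, 0.758 and -1.88 in control livers, a difference of -4.03 ± 1.64 (limma adjusted p = 0.428). Ctsz measured -25.3, -30.6, -6.37 and -12.8 millionths in iron-deficient livers, against -0.0185, 13.3, -14.6 and 1.34 in control livers, a difference of -18.8 ± 7.66 (limma adjusted p = 0.429). Iron-deficient replicate 3 lay within the control range for both genes, and replicate 4 did so for Ctsz. Ctsf turned higher under quantile normalization and median centring, and Ctsz under median centring.

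The main digestive cathepsins of hepatocyte lysosomes showed smaller standardised differences. Ctsb measured 62.7, 16.1, 185 and 24.1 millionths in iron-deficient livers, against -40.2, 44.8, -101 and 96.4 in control livers, and differed by 72.1 ± 56.2. Ctsd, the aspartic protease whose promoter carries 2 E-box cores, differed by -4.24 ± 4.56 millionths, Ctsl by 2.62 ± 5.63 and Ctsa, the protective protein of the galactosidase complex, by -12.9 ± 13.5. Their limma adjusted p ran from 0.696 to 0.917, and these values do not show that the genes were unchanged. Ctsc, which activates granule proteases of leukocytes, differed by -1.87 ± 44.9 millionths, and its 2 probe sets differed in sign. Ctse, Ctso, Ctsk and Ctsw lay between -0.74 and 0.87 on the standardised scale.

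Ctss, the cathepsin of antigen-presenting cells, measured 139, -16.3, 97.6 and 158 millionths in iron-deficient livers, against -99.0, 79.4, -81.9 and 101 in control livers, and differed by 94.8 ± 62.6 (limma adjusted p = 0.635), with the sign turned under both quantile settings. Iron-deficient replicate 2 was the lowest liver of its group and replicate 4 the highest, and control replicates 1 and 3 were the lowest of theirs. Beside this stand the 14 measured Kupffer cell and macrophage markers, for which the order of the arrays depended on the summary. The median offset of the markers from their control means was 0.95, -0.53, 1.17 and 1.32 SDs in iron-deficient livers, against -0.36, 0.10, -0.67 and 0.60 in control livers. Of these markers 13 were higher in the deposited values (13, 6 and 14 under rescaling), and none was below the 25th percentile of the arrays. Lyz2, a lysozyme, and Mrc1, the mannose receptor, were higher at an unadjusted limma p under 0.05. These 2 were 14.3% of the list, beside 5.74% of all genes. The mean level of the markers was 9.59603, 9.59652, 9.59630 and 9.59721 in iron-deficient livers, against 9.59572, 9.59562, 9.59607 and 9.59571 in control livers. By the median offset, iron-deficient replicate 2 and control replicate 3 were the lowest livers of their groups, and by the mean level iron-deficient replicate 1 and control replicate 2 were. Their part in the level of Ctss or of any other gene here was not tested.

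Among membrane glycoproteins, Lamp1 and Lamp2, which coat the inner face of the lysosomal membrane, were both lower in the deposited values and both higher under quantile normalization. Lamp1 measured -218, -122, -186 and -239 millionths in iron-deficient livers, against -156, 125, 138 and -107 in control livers. Control replicates 1 and 4 lay close to the iron-deficient livers, and replicate 1 lay among them. The difference was -191 ± 77.2 millionths (SE, n = 4 per group), with a limma adjusted p of 0.424, and it turned to 2047 under quantile normalization. The 3 probe sets of Lamp1 disagreed, with the other 2 at 28.2 ± 11.3 and -4.94 ± 1.27 millionths, and both of these have means of 6.54 and 6.19, below the 25th percentile of the arrays (6.55). Lamp2 differed by -7.16 ± 5.08 millionths, and its second probe set by 7.94 ± 42.2. Lamp3 and Lamp5, forms known from dendritic cells and brain, had standardised differences of 0.34 and -0.15.

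Of the 4 Ragulator genes measured, Lamtor2 was lower and the other 3 higher in the deposited values, where rescaling gave 2, 1 and 4 higher. Lamtor2 encodes 1 of the roadblock-fold subunits of the complex. It measured -3.16, -2.76, -2.98 and -3.42 millionths in iron-deficient livers, against 0.962, -1.07, 1.36 and -1.26 in control livers. All iron-deficient livers lay below all control livers and close together. The difference of -3.08 ± 0.957 millionths (SE, n = 4 per group), or -3.15 within-group SDs, reached a limma adjusted p of 0.324 and turned higher under quantile normalization and median centring. Lamtor3, Lamtor4 and Lamtor5 lay between 0.20 and 0.47 on the standardised scale. Lamtor1 shares its probe set with a second symbol and was not used.

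Npc2 encodes the lumenal protein that hands cholesterol to the membrane for export. It measured 58.2, 36.7, 28.6 and 18.7 millionths in iron-deficient livers, against -28.5, 35.1, -43.7 and 37.2 in control livers, a difference of 35.6 ± 21.7 (limma adjusted p = 0.602) that turned lower under quantile normalization with and without the Hamp probe set. Mcoln1 encodes the lysosomal calcium channel TRPML1, which also passes ferrous iron. Its values were -14.0, -32.0, -30.9 and 9.12 millionths in iron-deficient livers, against -2.45, 10.5, 14.3 and -22.4 in control livers, and the difference of -16.9 ± 12.1 (limma adjusted p = 0.664) turned higher under all 3 rescalings. In both genes the groups overlapped.

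Groups did not overlap for 4 of the 51 genes, 1 higher (1.96% of the 51 genes, where 3.42% of all genes did so) and 3 lower (5.88% where 4.4% of all genes did so). An exact permutation test over the 8 arrays, two-sided, gave each of Atp6ap1, Atp6v0a2, Ctsh and Lamtor2 a p of 0.0286, the smallest that 4 against 4 arrays can give. Groups that do not overlap always give this p, so it restates the separation and adds nothing to it.

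**Figure D5:**
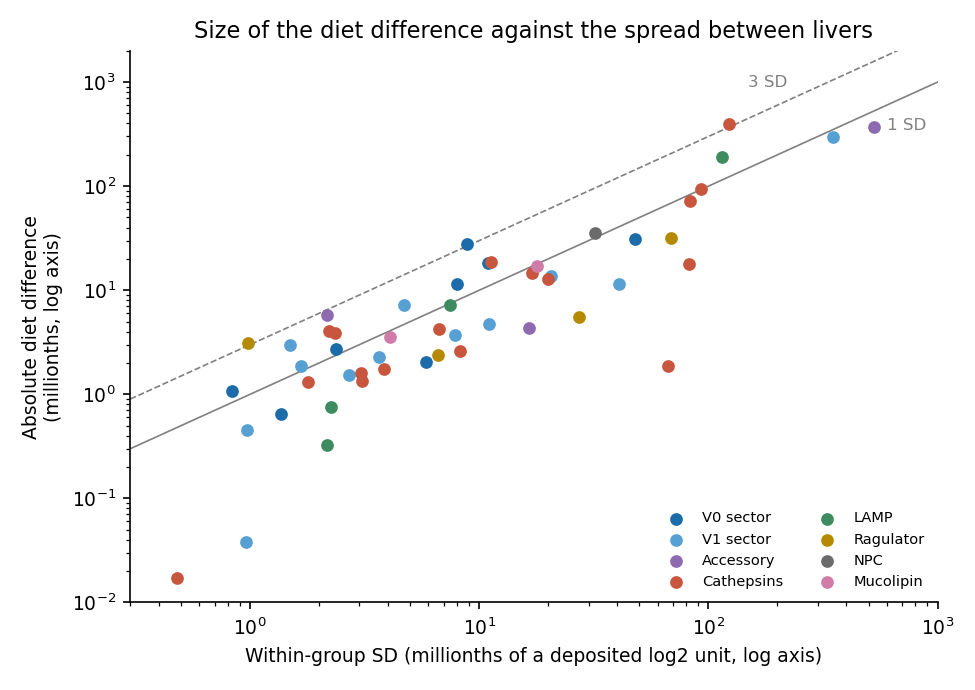
Each point is 1 of the 51 genes, with the within-group SD on the horizontal axis and the absolute diet difference on the vertical axis, both in millionths of a deposited log2 unit on log axes, coloured by role. The solid and dashed lines mark differences of 1 and 3 SDs, and 3 genes, Ctsh, Lamtor2 and Atp6v0a2, lie above the dashed line although their differences run from -394 to -3.08 millionths.

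Expression above background was not shown for 10 of the 51 genes, whose means lay below the 25th percentile of the arrays (6.55): Atp6v0a4, Atp6v1b1, Atp6v1g2, Atp6v1g3, Ctsj, Ctsm, Ctsq, Ctsr, Lamp3 and Mcoln2. Most are forms known from other organs. Atp6v0a4, Atp6v1b1 and Atp6v1g3 belong to the acid-secreting cells of the kidney, Atp6v1g2 to neurons, and Ctsj, Ctsm, Ctsq and Ctsr to a family of cathepsins of the rodent placenta. None of the 10 had an unadjusted limma p under 0.05, and their standardised differences ran from -1.65 to 1.15. The other 41 genes held all 9 genes with such a p.

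The wider lysosomal system gave counts of the same kind. Of 30 lysosomal hydrolase genes outside the cathepsin family, 12 were higher (23, 13 and 29 under rescaling) and 18 lower, with 2 higher and 4 lower at an unadjusted limma p under 0.05. These were 6.67% and 13.3% of the list, beside 5.74% and 7.5% of all genes. Ppt1, a palmitoyl thioesterase, was higher in every iron-deficient liver at 8.38 ± 1.99 millionths (limma adjusted p = 0.226). Such separation of the groups was seen in 3.42% of all genes on the higher side and 4.4% on the lower side. Dnase2, a lysosomal nuclease, differed by -33.0 ± 10.6 millionths, Man2b1, an alpha-mannosidase, by -45.7 ± 15.7, and Fuca1, a fucosidase, by -7.55 ± 2.85. Among 24 genes of lysosomal membrane and delivery, 8 were higher (19, 9 and 23 under rescaling) and 16 lower. At an unadjusted limma p under 0.05, 1 was higher and 2 were lower. These were 4.17% and 8.33% of the list, beside 5.74% and 7.5% of all genes. Slc17a5, which exports sialic acid, was lower in every iron-deficient liver at -27.9 ± 5.20 millionths (limma adjusted p = 0.147), M6pr, a receptor for mannose 6-phosphate tags, differed by 12.6 ± 4.19 and Gnptg, of the enzyme that makes those tags, by -25.4 ± 9.42. Cathepsin inhibitors numbered 9, 5 higher (5, 3 and 8 under rescaling) and 4 lower, with Serpinb1a at 249 ± 87.1 millionths. Only Serpinb1a had an unadjusted limma p under 0.05 (11.1% of the list higher, beside 5.74% of all genes).

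Of 18 genes of mTORC1 and TFEB control, 8 were higher (10, 7 and 15 under rescaling) and 10 lower, with 1 and 2 at an unadjusted limma p under 0.05. These were 5.56% and 11.1% of the list, beside 5.74% and 7.5% of all genes. Fnip1, a partner of folliculin, was higher in every iron-deficient liver at 46.8 ± 13.5 millionths (limma adjusted p = 0.296), while Mitf, a relative of TFEB, differed by -109.6 ± 40.5 and Deptor, an mTOR inhibitor, by -107 ± 40.6. Of 25 autophagy genes, 7 were higher (19, 12 and 21 under rescaling) and 18 lower. Such a p was found in 4 of the lower ones (16% of the list, beside 7.5% of all genes). None of the higher ones had it, beside 5.74% of all genes. Map1lc3a and Gabarap, which encode proteins of the autophagosome membrane, differed by -16.1 ± 4.73 and -2.02 ± 0.838 millionths, Atg4b, which processes them, by -2.59 ± 0.924, and Ulk1, the starting kinase, by -97.1 ± 38.5. None of the genes in these lists passed the adjusted limma threshold. Of the genes named from them only Serpinb1a, higher, and Mitf, lower, kept their sign under all 3 rescalings, although median centring cannot turn a higher gene.

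In the same fit, markers of endothelial and stellate cells had median standardised differences of 2.26 and 1.33, against -0.26 for the lysosomal genes. Of 12 endothelial markers 11 were higher (11, 9 and 12 under rescaling), 7 of them at an unadjusted limma p under 0.05 (58.3% of the list). Of 13 stellate and fibroblast markers 10 were higher (8, 8 and 13 under rescaling), 6 at such a p (46.2%). Over all genes, 5.74% were higher at such a p. Egfl7, an endothelial secreted factor, differed by 421 ± 53.9 millionths (limma adjusted p = 0.0735), Flt1 and Stab2, endothelial receptors, by 2461 ± 327 and 2254 ± 371, and Fcgr2b by 794 ± 147. Timp1, Lrat, Dcn and Col3a1 of the stellate list differed by 86.0 ± 15.0, 282 ± 51.5, 2759 ± 623 and 1991 ± 461 millionths. These 8 genes, picked for the lowest p of their lists, were higher under each of the 3 rescalings, although median centring cannot turn a higher gene. The lower markers of the 2 lists in the deposited values were Kdr, Col1a1, Col1a2 and Des. Their standardised differences were -0.82, -0.35, -0.04 and -0.32. Hepatocyte markers, 6 higher and 7 lower of 13, neutrophil markers, 6 and 1 of 7, lymphocyte and NK markers, 5 and 9 of 14, and cholangiocyte markers, 4 and 3 of 7, had none at such a p, and their directions are those of the deposited values. The part of these cell types in the lysosomal values was not tested.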

How the data were processed

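Liver RNA of 8 rats was measured on 1 array each. The deposited table holds a log2 value per probe set and array; the unit was read from the values (5.32 to 16.1), while the sources used here do not give the authors' summary or normalization steps. Per the labels, each array took biotin-labelled cRNA from 2 ug of liver RNA.

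Of 31099 probe sets, 57 controls were left out. Of the 31042 tested, 20826 had 1 platform symbol, 436 had several and 9780 none; all 51 genes matched RefSeq identifiers. Iron-deficient minus control was fitted to every probe set with limma 3.58.1 (lmFit and eBayes, R 4.3.3) and adjusted by Benjamini-Hochberg over all of them at 0.05. A run on simulated data checked the code only, and its outcome is not given here. Precision is limited by having 4 arrays a group. Exact permutation tests used all 70 splits of the arrays.

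Genes, lists and the E-box motif were chosen with earlier results of these data known. Values are given for genes with an unadjusted p under 0.05 and for the gene of each role with the largest standardised difference; from each list, marker lists included, up to 4 genes with the lowest p. Ctsb, Ctsd, Ctsl, Ctsa, Ctsc, Ctss, Lamp2, Atp6v1a and Atp6v1b2 were added after their values were seen. Promoters are RefSeq's, on GRCr8. Alternatives were other scalings, filters, variance models, probe set rules, a replicate block and each array left out.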

Additional observations from a re-analysis of the deposited data

Results flagged for a closer look

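In 2 of 102 groups of 4 livers, 51 genes in each diet group, 1 array stood apart from the other 3 by more than Dixon's 95% critical value, which chance exceeds in about 1 of 20 groups. For Lamtor5, iron-deficient replicate 2 lay 172 millionths above the control mean, with a gap of 0.851 of the range. The Lamtor5 difference of 32.1 ± 46.5 millionths was -14.5 ± 15.8 without that array (limma adjusted p = 0.830). For Atp6v0a4, whose mean is below the 25th percentile of the arrays, control replicate 1 was highest, with a gap of 0.843 of the range. Its difference of 2.73 ± 1.75 millionths was 3.76 ± 1.69 without that array (limma adjusted p = 0.412).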

How the results depend on the processing

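No lysosomal gene passed the adjusted threshold in limma under any alternative except quantile normalization, where 11 did, all higher, 7 of them lower as deposited, beside 5.47% of all genes. Hamp ranked first on every control array and between 1471 and 17735 on iron-deficient arrays, and with it left out 11 of the 51 genes held the same rank on all 8 arrays, 10 of them among the 11 called. For these genes the within-group SD is 0, so no standardised difference was computed under either quantile setting. At an unadjusted p under 0.05, counts higher and lower were 13 and 1 under quantile normalization (15.1% and 5.36% of all genes), 1 and 4 without the Hamp probe set (3.40% and 8.18%), and 0 and 0 under median centring (1.36% and 0.802%). They were 1 and 6 without the dimmest 25% of probe sets (5.91% and 8.21%), 0 and 5 with trend (5.62% and 6.92%), 1 and 3 by exact permutation test (3.42% and 4.40%) and 1 and 5 for the mean of all probe sets (5.72% and 7.29%). Leaving out each array gave 1 to 2 higher and 3 to 5 lower (4.26% to 5.95% and 5.49% to 8.06% of all genes). The median standardised difference was then -0.43 to -0.10. With each gene's probe sets averaged it was 0.012 (-0.036 over all genes). Taking the most extreme probe set of each gene gave -0.035 (-0.043 over all genes). Median centring gave 0.17 (0.17 over all genes), and the replicate number as a block gave -0.40 (-0.07 over all genes). Robust eBayes (5.70% and 7.44% of all genes) and current symbols (5.74% and 7.50%) left both counts at 2 and 7. The cause of the other changes was not tested.

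Of the 51 genes, 28 did not keep their sign under quantile normalization, 30 when it left out Hamp, where 11 became 0, and 25 under median centring, which adds the same 50.6 millionths to every difference. Followed here are the 11 genes picked for an unadjusted limma p under 0.05 or the largest standardised difference of their role. Among these, the signs that turned under quantile normalization were those of Atp6v0d1 (2572 millionths), Ctsf (183), Ctsh (5831), Lamp1 (2047), Lamtor2 (1035), Mcoln1 (243) and Npc2 (-121). Without the Hamp probe set they were those of Atp6ap1 (-189), Mcoln1 (27.9) and Npc2 (-657), and Atp6v0d1, Ctsh and Lamp1 were among those at 0. Under median centring they were those of Atp6v0a2 (22.7), Atp6v0d1 (32.2), Ctsf (46.5), Ctsz (31.8), Lamtor2 (47.5) and Mcoln1 (33.7).

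The replicate numbers did not pair the arrays: deviations of same-numbered arrays correlated over probe sets at -0.111, 0.0245, -0.0251 and -0.0773, and no iron-deficient array but replicate 2 correlated best with its own number. With the replicate number as a block, 1 gene was higher and 3 were lower at that unadjusted p (4.91% and 6.17% of all genes).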
